A study of Homo sapiens with 2 samples.

Results

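The genes of the cytosolic translation factors were examined in U87 cells treated with the curcumin analog CCA-1.1. The members are all protein-coding genes whose symbol begins with EIF or EEF, without the eIF2 kinases and without pseudogenes, together with the release factor genes ETF1 and GSPT1. This rule gave 69 of the 19938 protein-coding genes listed, and 62 of the 69 reached 1 TPM, a transcript level scaled for length and library size, as the mean of both libraries. EIF1AY, a Y-linked gene, is counted among the 69 and its level is not given.

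U87 is an established human glioblastoma cell line, labelled wild type, and the cells were grown in RPMI with 10% FBS. One culture condition received DMSO, the solvent, and the other received CCA-1.1, both for 72 h. Each condition had 1 library, so the differences below have no replicate check and no p-value can be given. The dose of CCA-1.1 used for sequencing is not given in the sources used here. CCA-1.1 is also called chemoprevention curcumin analog 1.1.

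Initiation factors bring the small ribosomal subunit, the initiator tRNA and the capped mRNA together and place the subunit at the start codon. Elongation factors then deliver each aminoacyl-tRNA and move the ribosome along the mRNA, and release factors end synthesis at the stop codon. Cells adjust initiation mainly at eIF2, through the exchange factor eIF2B, and at the cap, through proteins that bind eIF4E. Several mRNAs of the translation machinery begin with a C followed by a run of pyrimidines, a feature known as a terminal oligopyrimidine tract, through which the growth kinase mTORC1 and the protein LARP1 control their translation.

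Levels are in TPM, which is scaled for transcript length, so genes can be compared with each other. The difference of a gene is log2((CCA-1.1 TPM + 1) / (DMSO TPM + 1)), positive where the CCA-1.1 library was higher, and it understates the change of genes at low levels. A gene is called upregulated where its TPM + 1 was more than 25% higher with CCA-1.1 and downregulated where it was more than 20% lower, which is a difference of more than 0.32 in size. A 2-fold change is 1 on the same scale.

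The deposited table held 177816 transcripts, of which 169966 could be given a gene symbol. Those without one took 0.941% of all TPM with DMSO and 0.967% with CCA-1.1. The labelled cell type was checked with markers. VIM, the intermediate filament vimentin of mesenchymal cells, was at 3217 TPM with DMSO and 3106 TPM with CCA-1.1, and CD44, a surface receptor, was at 607 and 473 TPM. The other glioma markers on the list were low. NES was at 7.53 and 7.62 TPM, OLIG2 at 5.64 and 7.03 TPM and SOX2 at 1.87 and 1.45 TPM. The astrocyte markers were lower still, with GFAP at 0.41 and 0.57 TPM and S100B listed at 0 in both libraries. Of the other cell types, the endothelial markers summed to 3.93 and 3.23 TPM and the neuron markers to 35.2 and 30.8 TPM. CD68 was at 494 and 397 TPM while the other immune markers, PTPRC and AIF1, were below 0.1 TPM. The part of these marker levels in the results was not tested.

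The translation factor genes were mostly abundant, and a little more of the mRNA belonged to them in the CCA-1.1 library. Their summed level was 16494 TPM with DMSO and 17897 TPM with CCA-1.1, or 1.65% and 1.79% of all TPM. EEF1A1, which carries aminoacyl-tRNA to the ribosome, alone gave 36.7% and 37.3% of that sum. Without EEF1A1 the sum was 10445 and 11225 TPM. The mean level was at least 100 TPM for 29 members, at least 10 TPM for 51 members and between 1 and 10 TPM for 11 members. Below 1 TPM were EEF1A2, EIF4E1B, EIF4E3, EIF5AL1, EEF1AKMT2 and the read-through locus EEF1AKMT4-ECE2. The plot of levels shows the expressed members by role.

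Single members moved little. By this rule 3 of the 62 members were upregulated, EIF4A2, EEF1B2 and EIF3CL, which is 4.84% against 6.84% of the 12041 protein-coding genes that averaged 1 TPM or more. The only downregulated member was EIF4EBP3, 1.61% against 4.53% of these genes. EIF3CL was also the only member past 2-fold, a line that 0.341% of the protein-coding genes passed. Among genes averaging 100 TPM or more, 6.90% of members were upregulated against 5.14% of protein-coding genes. At this level 0.0% of members were downregulated against 4.34%. These shares rest on few members, and their order for upregulation depended on the level. Just inside the line for upregulation was EEF1B2 at 0.38. Just outside it were EIF3A, EIF2S3 and EIF4B, each at 0.30.

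More members were higher than lower. Of the 62 members, 41 were higher with CCA-1.1 and 21 lower, so that 66.1% were higher against 53.8% of all protein-coding genes. The median difference over the members was 0.04 and over all protein-coding genes 0.02. The contrast was wider among abundant genes. Among genes averaging 100 TPM or more, 19 of 29 members were higher with a median of 0.04, while 42.2% of the 1499 protein-coding genes at this level were higher with a median of -0.03. The 5th and 95th percentiles of all protein-coding genes were -0.31 and 0.36, and 4 members lay outside them, the same 4 that were called.

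Members whose listed first base opens a pyrimidine run were among those with the highest differences. The motif searched was a C at the first base of the gene followed by at least 4 pyrimidines, C or T, read on the strand of the gene only. It was chosen after the differences had been seen. The windows shown begin 10 bases before the first base and end 20 bases into the first exon, and capitals mark the C and the whole pyrimidine run. They come from RefSeq on GRCh38.p14. The first set holds the members that are highest in level or difference among those with the motif, and EIF3K, which was lower with CCA-1.1.
EIF4A2: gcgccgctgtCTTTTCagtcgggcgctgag
EEF1B2: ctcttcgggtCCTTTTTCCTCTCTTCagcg
EIF2S3: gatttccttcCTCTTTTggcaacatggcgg
EIF4B: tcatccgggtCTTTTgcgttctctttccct
EEF2: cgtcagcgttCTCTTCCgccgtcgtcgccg
EEF1A1: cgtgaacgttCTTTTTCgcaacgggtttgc
EIF3D: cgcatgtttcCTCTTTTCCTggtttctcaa
EIF3K: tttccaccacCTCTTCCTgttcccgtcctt
The windows on the plus strand were chr3:186783567-186783596 for EIF4A2, chr2:206159885-206159914 for EEF1B2, chrX:24054946-24054975 for EIF2S3, chr12:53006446-53006475 for EIF4B and chr19:38619178-38619207 for EIF3K. Those on the minus strand were chr19:3985444-3985473 for EEF2, chr6:73521013-73521042 for EEF1A1 and chr22:36529147-36529176 for EIF3D. EEF1B2 had 2 listed starts and the other genes shown had 1.

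The contrast set holds the 4 members of highest level that had 1 listed start and no such run there, with the first base in capitals.
EIF4A1: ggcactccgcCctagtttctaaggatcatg
EEF1G: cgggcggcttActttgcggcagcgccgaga
EIF1: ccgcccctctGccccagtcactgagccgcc
EIF3I: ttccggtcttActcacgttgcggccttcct
The windows were chr17:7572815-7572844 for EIF4A1, chr17:41688875-41688904 for EIF1 and chr1:32222397-32222426 for EIF3I, on the plus strand, and chr11:62573872-62573901 for EEF1G, on the minus strand. A window without the motif says only that these letters are not at the listed base, and the start used in U87 cells was not measured.

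The motif stood at the listed start of 13 of the 56 members that had one, or 23.2%. It stood at 4.07% of the 35116 gene starts in the table and in 7.65% of the 9900 protein-coding genes with a listed start and at least 1 TPM. Of the 13 members with it, 11 were higher with CCA-1.1 and 2 lower, EIF3K and EIF2S3B, with a median difference of 0.20. Their levels summed to 9189 TPM with DMSO and 10466 TPM with CCA-1.1. The 37 expressed members with another listed start were divided 21 higher to 16 lower, with a median of 0.02 and sums of 5095 and 4944 TPM. The 12 expressed members with no listed start, among them EEF1D, EIF3A and EIF3E, had a median of 0.16 and 9 were higher. The members with the motif and the others overlapped, since EIF2D at 0.25 had it and EIF2B5 at 0.25 did not.

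All protein-coding genes with the motif were set beside these members. Among 757 such genes the median difference was 0.07 and 63.8% were higher, against a median of 0.01 among 9143 genes with another listed start. Without translation factors and ribosomal protein genes, 697 genes with the motif remained, with a median of 0.05 and 61.0% higher. The cytosolic ribosomal protein genes, which are the best known carriers of the tract, had the motif in 47 of 68 genes with a listed start. Of these ribosomal protein genes, 83 had at least 1 TPM, and 81 of them were higher with CCA-1.1, with a median of 0.31. Of the 83 genes 35 were upregulated, or 42.2%, against 6.84% of all protein-coding genes averaging 1 TPM or more. Ribosomal protein genes with the motif had a median of 0.31, those with another listed start 0.18 and the 16 with no listed start 0.35, the highest of the 3. The comparison with ribosomal protein genes was also chosen after the values had been seen.

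Base composition and length were read from the longest annotated transcript of each gene, for all 51 members that averaged 10 TPM or more. Over protein-coding genes at this level the median difference was 0.05 in the third of genes with the lowest GC content, -0.01 in the middle and -0.03 in the highest. Members with the motif had medians of 0.20, 0.20 and 0.26 in these classes, the last from 1 gene. Members with another listed start had medians of 0.02, 0.01 and -0.17. Members with no listed start, 3 in each class, had medians of 0.27, 0.18 and 0.13. By length, from short to long, the medians were 0.12, 0.28 and 0.16 with the motif, 0.02, -0.0017 and 0.02 with another listed start, and 0.08, 0.18 and 0.29 with none. Each class held 1 to 6 members with the motif, and the part of GC content and length in these differences was not tested.

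The elongation factors held most of the difference in summed level. The 5 genes of the complexes eEF1 and eEF2, EEF1A1, EEF1B2, EEF1D, EEF1G and EEF2, were all higher, from 9392 TPM together with DMSO to 10653 TPM with CCA-1.1, a log2 ratio of sums of 0.18. The 48 expressed genes of initiation, eIF5A and eIF6 together went from 6802 to 6958 TPM, a log2 ratio of sums of 0.03. The elongation group gave 57.4% of the members' TPM with DMSO and 59.9% with CCA-1.1.

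EEF1B2, a subunit that exchanges GDP for GTP on eEF1A, was upregulated from 595 TPM with DMSO to 776 TPM with CCA-1.1, a difference of 0.38. EEF1D, the second exchange subunit, was at 832 and 986 TPM, a difference of 0.24. EEF1G, which anchors the exchange complex, was at 498 and 521 TPM, a difference of 0.06. The subunits of this exchange complex therefore differed among themselves in size but not in direction. EEF1A1 itself was at 6049 and 6672 TPM, a difference of 0.14. EEF2, which translocates the ribosome, was at 1417 and 1698 TPM, a difference of 0.26. EEF1A2, the eEF1A form of neurons and muscle, was at 0.15 and 0.14 TPM, so EEF1A1 made up nearly all of this pair in both libraries.

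The remaining elongation genes were at lower levels. EEF1E1, an auxiliary protein of the aminoacyl-tRNA synthetase complex, was at 58.1 TPM with DMSO and 59.4 TPM with CCA-1.1. EEF2K, the kinase that inhibits eEF2, was at 10.5 and 9.01 TPM, a difference of -0.20, the only expressed elongation gene that was lower. EEFSEC, which delivers selenocysteine, was at 1.04 and 1.45 TPM. Of the methyltransferases that modify eEF1A and eEF2, 4 had at least 1 TPM and 2 of them were higher. EEF1AKMT3, which methylates a lysine of eEF1A, was the most abundant of these at 11.9 and 13.7 TPM.

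The eIF3 subunits were mostly higher with CCA-1.1. eIF3 is the multi-subunit scaffold that holds the small ribosomal subunit and mRNA together. Without EIF3CL, 11 of its 13 subunit genes were higher with CCA-1.1 and 2 lower, with a median of 0.13 and a range from -0.13 to 0.30, and none was called. EIF3A, a core scaffold subunit, had the largest difference of these, at 113 TPM with DMSO and 139.7 TPM with CCA-1.1. EIF3E followed at 243 and 294 TPM. EIF3L was at 118 and 133 TPM and EIF3F at 37.2 and 41.7 TPM. The lower ones were EIF3I, at 263 and 239 TPM, and EIF3K, at 226 and 206 TPM. EIF3G, a partner of EIF3I, was at 243 and 247 TPM. The levels of the 13 genes spanned from 22.0 TPM for EIF3J to 263 TPM for EIF3I in the DMSO library.

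EIF3CL is a near-identical copy of EIF3C, and Kallisto divides shared reads between such copies, so its value is uncertain. It was listed at 0.16 TPM with DMSO and 2.27 TPM with CCA-1.1, a difference of 1.50, while EIF3C was at 189 and 197 TPM. EIF3CL thus made up 0.0846% and 1.14% of this pair. Of its 2.27 TPM, 1.79 TPM came from the predicted transcript XM_047434558.1, which was listed at 0 with DMSO. The sum of both copies was 189 and 199.7 TPM.

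eIF2 carries the initiator tRNA to the small subunit, and its 3 chains were not alike. EIF2S3, the GTP-binding gamma chain, was at 67.6 TPM with DMSO and 83.6 TPM with CCA-1.1, a difference of 0.30. EIF2S1, the alpha chain that stress kinases phosphorylate, was at 44.4 and 48.0 TPM, a difference of 0.11. EIF2S2, the beta chain, was at 257 and 244 TPM, a difference of -0.08. The order of the chains by level was the same in both libraries, with the beta chain highest. EIF2S3B, a retrocopy of the gamma chain, was at 1.30 and 1.09 TPM and shares sequence with it, so the division between them is uncertain.

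All 5 genes of eIF2B, the exchange factor that reloads eIF2 with GTP, were higher, with differences from 0.02 to 0.25 and a median of 0.05. The largest was that of EIF2B5, the catalytic epsilon subunit, at 22.3 TPM with DMSO and 26.7 TPM with CCA-1.1. The most abundant was EIF2B4, the delta subunit, at 66.5 and 67.3 TPM. EIF2B1 was at 53.9 and 55.4 TPM, EIF2B2 at 16.8 and 17.4 TPM and EIF2B3 at 5.80 and 6.45 TPM. None was called, and the size of 4 of the 5 differences was below 0.14.

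The genes of 43S assembly and start codon choice went both ways, 4 higher and 4 lower, with a median of -0.01. EIF1, which guards start codon selection, was the most abundant at 497 TPM with DMSO and 498 TPM with CCA-1.1. Its paralog EIF1B was at 213 and 198 TPM. EIF5, the GTPase activator of eIF2, was at 122 and 123 TPM, so both main regulators of start codon choice were level between the libraries. EIF2D, which can deliver tRNA without GTP, was the highest in difference at 59.1 and 70.6 TPM, or 0.25, followed by EIF2A at 79.0 and 90.6 TPM. EIF1AD, a protein related to eIF1A, was the lowest in difference at 35.8 and 29.6 TPM, or -0.27. EIF5B, the GTPase that joins the subunits, was at 62.1 and 53.7 TPM, a difference of -0.21. EIF1AX was at 32.1 and 31.5 TPM.

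Among the genes that act at the cap, the helicase EIF4A2 moved apart from its paralogs. EIF4A2 was upregulated from 225 TPM with DMSO to 313 TPM with CCA-1.1, a difference of 0.47, higher than in 97.8% of protein-coding genes. EIF4A1, the main helicase that unwinds mRNA for the ribosome, was at 636 and 629 TPM, and EIF4A3, a core protein of the exon junction complex, at 98.5 and 95.7 TPM. The share of EIF4A2 in these 3 genes was 23.5% with DMSO and 30.1% with CCA-1.1, and that of EIF4A1 66.3% and 60.6%. EIF4B, which stimulates the helicase, was at 292 and 359 TPM, a difference of 0.30, while EIF4H, a related cofactor, was at 196 and 193 TPM.

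The scaffold and cap-binding genes differed less. EIF4G1, the main scaffold that joins eIF4E, eIF4A and eIF3, was at 205 TPM with DMSO and 181 TPM with CCA-1.1, a difference of -0.18, and its share of the EIF4G genes was 38.8% and 35.4%. EIF4G2, a relative that does not bind eIF4E, was at 219 and 222 TPM, and EIF4G3 at 105 and 108 TPM. EIF4E, the cap-binding protein, was at 26.7 and 27.4 TPM. EIF4E2, a cap-binding protein known as a repressor of translation, was at 125 and 129 TPM and made up 82.3% and 82.4% of the EIF4E genes. The ratio of these cap-binding genes was therefore nearly the same in both libraries.

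The inhibitors of eIF4E were led by EIF4EBP1, the best known 4E-BP, at 217 TPM with DMSO and 238 TPM with CCA-1.1, a difference of 0.13. EIF4EBP2 was at 9.94 and 10.2 TPM. EIF4EBP3 was downregulated from 8.90 to 6.25 TPM, a difference of -0.45, lower than in all but 1.90% of protein-coding genes. It shares its end with the read-through locus ANKHD1-EIF4EBP3, which was at 5.85 and 5.63 TPM, so the division of reads between them is uncertain. The 3 genes of 4E-BPs summed to 236 and 254 TPM, and EIF4EBP1 was 92.0% and 93.5% of that sum. EIF4ENIF1, the transporter of eIF4E, was at 4.75 and 5.99 TPM, a difference of 0.28.

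The genes of eIF5A, eIF6 and the release factors were lower as groups, though no gene among them was called with all transcripts summed. EIF5A, which carries hypusine and helps stalled ribosomes, was at 774 TPM with DMSO and 682 TPM with CCA-1.1, a difference of -0.18. EIF5A2 was at 9.89 and 9.50 TPM, and EIF5AL1, a copy of EIF5A, at 0.42 and 0.41 TPM. EIF6, which keeps the large subunit apart from the small one, was at 164 and 145 TPM, a difference of -0.17. ETF1, which reads the stop codons as eRF1, was at 132 and 119.5 TPM, a difference of -0.14. With curated coding transcripts only, its difference was -0.35 and it was downregulated. Its GTPase partner GSPT1, or eRF3a, was at 67.2 and 63.7 TPM, a difference of -0.08, and the related GSPT2 at 11.9 and 12.2 TPM. None of the EIF5A genes, EIF6, ETF1 and GSPT1 had the C and pyrimidine run at a listed start.

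The transcripts of single genes moved more than the genes. RefSeq transcripts listed for the described members numbered 357, of which 99 were at 0 in both libraries and 165 had a mean of at least 1 TPM. Past 2-fold, 10 of the 165 transcripts were upregulated, 6.06% against 3.01% of the transcripts of protein-coding genes at this level, and 6 were downregulated, 3.64% against 2.93%. They belonged to 8 of the 60 members with such a transcript, 13.3% against 11.1% of protein-coding genes. The 8 members were EEF1D, EIF1AD, EIF3C, EIF4E2, EIF4G3, EIF5A, EIF6 and ETF1. None of the 8 was called as a gene with all transcripts summed, and 7 of the 16 transcripts were listed at 0 or 0.01 TPM in one library. Transcripts of one gene share most of their sequence, and Kallisto divides the shared reads among them.

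The largest transcript difference was in ETF1. Its predicted transcript XM_047416930.1 was at 0.01 TPM with DMSO and 16.2 TPM with CCA-1.1, while its main transcript NM_004730.4 was at 119 and 90.9 TPM. The sum of both was 119 and 107 TPM, a difference of -0.15, close to that of the gene. Both were picked with their values known and together hold most of the gene's TPM, so this closeness is no test. In EIF4G3, NM_001391892.1 was at 0.77 and 11.5 TPM, a difference of 2.82, and NM_001391903.1 was listed at 0 with DMSO and at 8.34 TPM with CCA-1.1. In the opposite direction, NM_001391899.1 of EIF4G3 was at 4.56 and 0.44 TPM and NM_001391894.1 at 5.32 and 1.98 TPM. These 4 with NM_001391893.1 and NM_001391898.1 summed to 41.5 and 42.9 TPM. The 6 were picked with their values known, so the closeness of the sums is no test. NM_001391892.1 and NM_001391893.1 alone summed to 25.4 and 28.4 TPM.

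In EIF4E2, which had the transcript past 2-fold with the highest mean level, NM_001330201.2 was downregulated from 15.0 to 5.74 TPM and NM_001276337.2 was upregulated from 4.34 to 11.7 TPM, with the main transcript NM_004846.4 at 69.5 TPM with DMSO and 85.5 TPM with CCA-1.1. A further transcript of EIF4E2, NM_001276336.2, was at 31.0 and 19.8 TPM. These 3 lesser transcripts summed to 50.3 and 37.2 TPM, a difference of -0.42, so they did not cancel each other. In EIF1AD, NM_001242486.2 was downregulated from 3.28 to 0.55 TPM. NM_001242481.2 of EIF1AD was at 5.64 and 2.54 TPM, short of 2-fold on this scale. In EIF6, the non-coding transcript NR_052024.1 was upregulated from 0.73 to 4.51 TPM. The transcripts of EIF5A and EEF1D past 2-fold each made up under 1% of their gene. NM_001143762.2 of EIF5A was at 3.96 TPM with DMSO and 0.01 TPM with CCA-1.1. XM_011523711.3 of the same gene was listed at 0 and 4.35 TPM, and the pair summed to 3.96 and 4.36 TPM. This pair was picked with its values known, so the closeness of the sums is no test. Also past 2-fold in EIF5A, XM_047435524.1 was listed at 0 and 2.82 TPM and XM_011523713.3 at 2.31 and 0 TPM. XM_005250823.1 of EEF1D was at 0.01 and 6.68 TPM. Past 2-fold as well were XM_047434827.1 of EIF3C, at 0.74 and 2.64 TPM, and NM_001198803.2 of EIF4G3, at 0.27 and 2.07 TPM. Further large differences had a mean under 1 TPM. XM_047421455.1 of EEF1D was listed at 0 and 1.90 TPM and NM_001037808.2 of EIF3C at 1.82 and 0 TPM. XM_047435523.1 of EIF5A was listed at 1.77 and 0 TPM and XM_047416931.1 of ETF1 at 1.15 and 0 TPM.

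The make-up of each gene was compared as its isoform shift, the share of the gene's TPM that lay in different transcripts between the libraries, for genes that averaged 10 TPM or more and had at least 2 listed transcripts. The median was 3.35% over 32 members and 5.75% over 6629 protein-coding genes. With 3 to 5 listed transcripts the medians were 1.67% and 3.54%, and with 6 to 10 they were 5.25% and 7.21%, so the members had the smaller median in each of these classes. The largest shifts were those of EIF1AD at 24.0%, EIF4G3 at 21.6%, EIF4E2 at 17.3%, ETF1 at 15.4% and EIF2B4 at 7.66%. EIF1AD, with 8 listed transcripts, lay above the 95th percentile of 21.4% over protein-coding genes with 6 to 10 transcripts, and EIF4G3 below that of 35.4% over genes with 11 or more. In EIF2B4 the shift lay between NM_001034116.2, at 39.1 and 34.7 TPM, and NM_015636.4, at 23.0 and 26.7 TPM. EEF1D, with 54 listed transcripts, and EIF4G3, with 61, had the most to divide. A further 26 members had 1 listed transcript and no make-up to compare, among them EIF1.

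Other genes of the pathway, taken from a list of 49, were set beside the members. All 49 had at least 1 TPM, 34 were higher with CCA-1.1 and 15 lower, and the median was 0.06. The share higher was 69.4% against 53.8% of all protein-coding genes averaging 1 TPM or more. Of the 49, 3 were upregulated, 6.12% against 6.84% of all, and 1 was downregulated, 2.04% against 4.53%. PAIP1, which binds poly(A)-binding protein, was at 23.8 TPM with DMSO and 30.2 TPM with CCA-1.1, and ABCE1, which recycles ribosomes after termination, at 30.0 and 37.9 TPM. The other 2 were low, DPH5 at 1.69 and 2.41 TPM and DPH6 at 2.46 and 1.73 TPM, both enzymes that make diphthamide on eEF2.

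The regulators upstream of the members showed no common direction. Of 9 eIF2 kinases and phosphatase subunits, 4 were higher and 5 lower with a median of -0.02. EIF2AK3, the kinase PERK, was at 44.9 TPM with DMSO and 42.9 TPM with CCA-1.1, and PPP1R15A, the stress-induced phosphatase subunit GADD34, at 226 and 249 TPM. A list of 10 genes held genes of mTORC1, kinases that act on initiation or elongation, and PDCD4, an inhibitor of eIF4A. Of these, 4 were higher, PDCD4 among them, and 6 lower with a median of -0.05. MTOR was at 20.2 and 18.9 TPM, and LARP1, counted with the poly(A)-binding proteins, at 79.9 and 71.1 TPM. mRNA levels of kinases do not give their activity.

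The enzymes that modify the factors and the mitochondrial factors were mostly higher. Of 9 genes for hypusine and diphthamide, 8 were higher with a median of 0.13, among them DHPS, which makes hypusine on eIF5A, at 120.2 TPM with DMSO and 132 TPM with CCA-1.1. Of 9 mitochondrial translation factors, 8 were higher with a median of 0.15, and the exception was TUFM, the mitochondrial elongation factor, at 169 and 157 TPM. MRRF, the ribosome recycling factor, was the highest in difference at 24.6 and 29.5 TPM. None of the 9 mitochondrial factors was called.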

How the data were processed

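RNA of U87 cells treated with DMSO or CCA-1.1 was enriched for mRNA and sequenced on an Illumina instrument, with 1 library per condition. The authors checked reads with FastQC 0.11.9 and MultiQC 1.1, named in the submitters' processing notes, and quantified transcripts with Kallisto on GRCh38.p14. The deposited values are TPM with 2 decimals, 1 column per library. TPM keeps no read depth, so no counting interval is given. Transcripts were matched to symbols without version and summed per gene with Python 3.11.15, numpy 2.4.6 and pandas 2.3.3, and plots were drawn with matplotlib 3.10.9. A pseudocount of 1 TPM and a minimum mean of 1 TPM were used, and called genes differed by more than 0.32. The calculation was tested on simulated data. No test was run. The members and lists were chosen with earlier results of these data known. Genes named by rule were the highest, most raised and most lowered member of each role at 10 TPM or more on average, members that were called, paralog groups, 7 chosen genes, the 10 transcripts that rose most and the 10 that fell most, and the 5 largest isoform shifts. Other names, the start motif, the ribosomal protein genes, the counts of higher and lower members and the classes of length and GC content were added once values were known. Gene starts came from RefSeq on GRCh38.p14, and 13 members had none listed. Lengths and GC content came from GENCODE transcripts, with no coordinates used.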

Additional observations from a re-analysis of the deposited data

How the results depend on the processing

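Differences of the genes named by rule, paralog shares, and the main counts and medians were recomputed in other settings. These were pseudocounts of 0.1 and 0.01 TPM, scaling by the median ratio, and a minimum mean of 10 TPM or none. The others were curated coding transcripts only (NM records), called curated transcripts below, and versioned identifiers only. Isoform shifts, summed levels, the ribosomal protein genes and the classes of length and GC content were not recomputed. Upregulated members numbered 3, 2 with curated transcripts, 2 with the minimum of 10 TPM, and 5 with a pseudocount of 0.1 TPM or of 0.01 TPM. The difference of EIF3CL, 1.50, was 3.19 with a pseudocount of 0.1 TPM and 3.75 with 0.01 TPM. Downregulated members numbered 1, 2 with curated transcripts, where ETF1 at -0.35 joined EIF4EBP3, and 0 with the minimum of 10 TPM. At that minimum 3.92% of members were upregulated against 4.33% of protein-coding genes, and 0.0% were downregulated against 3.62%. For the other changed settings, and for the transcript counts below, no share over all genes is given. Those counts therefore have nothing to be set against. The 1 member past 2-fold, EIF3CL, became 0 with curated transcripts and 0 with the minimum of 10 TPM. Members with a transcript past 2-fold numbered 8, 4 with curated transcripts and 1 with the minimum of 10 TPM. Upregulated transcripts numbered 10, 4 with curated transcripts and 0 with the minimum of 10 TPM, and the 6 downregulated ones became 1 with that minimum. Predicted and non-coding transcripts, NR_052024.1 of EIF6 among them, and genes under 10 TPM are left out by construction in these settings. The median over the members stayed between 0.04 and 0.05, and the 11 higher eIF3 subunits and 11 higher members with the C and pyrimidine start were 11 in each setting. Among the genes named by rule only EIF1 changed sign, from 0.0031 to -0.0009 with median-ratio scaling, whose factor was 1.0028. EEFSEC, not among them, was lower with CCA-1.1 in its curated transcript NM_021937.5, at 1.04 and 0.89 TPM. With the motif allowed to begin up to 2 bases to either side of the listed base, a setting added after the data were seen, it stood at 10.5% of gene starts. It stood in 17 of 50 expressed members, or 34.0%, of which 15 were higher, with a median of 0.15. Of 9900 protein-coding genes with a listed start and at least 1 TPM, 16.5% had it. Of these 964 were higher and 669 lower, with a median of 0.04. The 4 members that only the wider search added also had a median of 0.04. No paired analysis was possible because each condition had 1 library, and no library could be left out. Depth is unknown from TPM, so low levels carry an error that cannot be given.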

Other observations

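Small nucleolar RNA genes lie inside introns of several translation factor genes and were listed with values of their own. Of 16 such genes within the described members, 15 were above 0 in a library, in 8 hosts, with 8 higher and 7 lower with CCA-1.1. Past 2-fold, 4 were higher and 5 lower, with no minimum level set. Among these, SNORD51, SNORD66, SNORD97 and SNORA28 were listed at 0 in one library. The share past 2-fold over all small nucleolar RNAs was not computed, so these counts have nothing to be set against. Of the 15, 8 had the same sign as their host. In EIF4A2, SNORD2 was at 42.9 TPM with DMSO and 7.35 TPM with CCA-1.1 while SNORA63 was at 6.84 and 29.6 TPM, so RNAs of this host, which was upregulated, went both ways. In EIF4A1 the most abundant, SNORA67, was at 79.3 and 101.3 TPM. The libraries were enriched for mRNA, and small RNAs without a poly(A) tail are recovered poorly from such libraries, so these values carry an unknown error.

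Processed copies of the translation factor genes took little of the TPM. The RefSeq table held 165 EIF and EEF pseudogenes, of which 3 had a transcript in the deposited table, and their levels summed to 1.64 TPM with DMSO and 1.78 TPM with CCA-1.1. EEF1A1 had 50 pseudogenes in the RefSeq table and 0 of them had a transcript in the deposited table, so reads from such copies would be counted with EEF1A1 if they occurred. The read-through locus EEF1E1-BLOC1S5 was at 6.41 and 4.80 TPM, beside EEF1E1 at 58.1 and 59.4 TPM.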
